A study of Homo sapiens with 8 samples.

Results

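The human mitochondrial genome is transcribed into 13 mRNAs, 2 rRNAs and 22 tRNAs, and the values of all 37 genes are described here in BEAS-2B, a line of bronchial epithelial cells made immortal with a viral oncogene. The genes are all rows of the deposited count table whose chromosome field names the mitochondrial sequence, 37 of 50006 rows, with no use of their counts. RNA was sequenced from 8 libraries in 4 groups of 2, all wild-type cells of this line grown in serum-free LHC-9 medium. The groups were FBG (cells given fibrinogen), FCP (cells given Der m 1-derived FCPs, titled M1-FCP, an abbreviation that the labels do not expand), aC (cells given the fibrinogen αC domain) and Mock (cells given PBS). Each protein preparation was used at 4 ng/µl for 4 h. The series was made to look at adhesion, and the mitochondrial transcripts were not its stated subject.

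Mitochondrial DNA is a small circle inside the mitochondrion, transcribed along both strands by the RNA polymerase POLRMT with the factors TFAM and TFB2M. Each strand gives a long polycistronic precursor, from which the mRNAs and rRNAs are released mostly by excision of the tRNAs that lie between them. The mRNAs encode core subunits of respiratory complexes I, III and IV and of ATP synthase, the rRNAs build the mitochondrial ribosome, and the tRNAs serve translation inside the organelle. The mRNAs lack the long untranslated ends of nuclear transcripts, and the amount of each RNA depends on its turnover as well as on transcription.

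In the deposited coordinates (GRCh38.p14, matched here at all 37 rows to the GENCODE v29 reference transcripts), 12 mRNAs, both rRNAs and 14 tRNAs lie on the plus strand, whereas ND6 and 8 tRNAs lie on the minus strand. ATP8 and ATP6 share 46 bases, ND4L and ND4 share 7 bases, and ND3 lies directly between the tRNA genes TRNG and TRNR. For 6 of the 13 mRNAs the annotated coding sequence ends without a complete stop codon. The sequences on which the results below turn are the gene with a long overlap (ATP8), the end of the gene with a short overlap (ND4L), the tRNAs that flank ND3, and the most abundant tRNA row, TRNC. They are given 5′ to 3′ from the reference transcripts, with the shared bases of ATP8 and ND4L and the anticodon of each tRNA in capitals.
ATP8, chrM:8366-8572, plus strand: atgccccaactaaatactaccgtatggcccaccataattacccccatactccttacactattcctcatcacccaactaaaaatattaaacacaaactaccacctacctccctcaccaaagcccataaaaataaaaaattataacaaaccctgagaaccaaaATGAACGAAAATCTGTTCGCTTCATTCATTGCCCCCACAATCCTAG
end of ND4L, chrM:10707-10766, plus strand: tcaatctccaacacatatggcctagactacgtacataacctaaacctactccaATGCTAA
TRNG, chrM:9991-10058, plus strand: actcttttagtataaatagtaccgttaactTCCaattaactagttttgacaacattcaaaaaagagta
TRNR, chrM:10405-10469, plus strand: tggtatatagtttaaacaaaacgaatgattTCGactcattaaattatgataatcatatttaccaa
TRNC, chrM:5761-5826, minus strand: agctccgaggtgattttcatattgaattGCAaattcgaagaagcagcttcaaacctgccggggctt
The file headers record counting of read pairs with no overlap option and no strand. Pairs that could not be assigned to a single gene were left out under that setting, and how many such pairs arose at the shared or adjoining ends of ATP8, ND4L, ND3, TRNG and TRNR was not tested.

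Depth was 15137196 to 22258791 counts per library, highest in aC and FCP and lowest in FBG. The FCP and aC libraries stood apart from the FBG and Mock libraries in genes that mark cell identity. All 8 epithelial markers tested were called higher in both FCP and aC against Mock, where 37.3% and 38% of all genes tested were called higher. KRT5, a basal keratin, had 103 and 113 counts in FBG libraries, 35985 and 36439 in FCP, 37148 and 38680 in aC, and 34 and 27 in Mock libraries. The summed epithelial marker level was 796 to 808 CPM (counts scaled to 1000000 per library) in FBG, 3725 to 3784 in FCP, 3687 to 3751 in aC and 871 to 880 in Mock libraries. The labelled epithelial identity thus rested in FBG and Mock libraries on KRT8 and KRT18, with EPCAM and CDH1 at 146 counts or fewer. All 6 fibroblast markers that could be tested fell in FCP and aC against Mock, where 36.1% and 36.7% of all genes were called lower. The fibroblast list summed to 1961 to 1981 CPM in FBG, 606 in FCP, 593 to 598 in aC and 3002 to 3024 in Mock libraries. The 6 leukocyte markers summed to at most 3.09 CPM in any library, with CD3E and HBB at 0 throughout. FBG and Mock also differed in these markers, by less: in FBG against Mock 5 of 6 fibroblast markers fell (list median -0.79), COL1A1 having 16123 and 16186 counts in FBG and 32131 and 32523 in Mock libraries, and of 8 epithelial markers 3 rose and 3 fell. In that comparison 24.2% of all genes were called higher and 26.3% lower. Every difference below between FBG, FCP or aC and Mock, or between FCP or aC and FBG, was thus measured between libraries that also differ in these markers, and their part in the mitochondrial values was not tested.

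The mitochondrial genome gave 4.27% and 4.24% of all counts in FBG, 4.47% and 4.45% in FCP, 4.15% and 4.13% in aC, and 4.09% and 4.07% in Mock libraries. These shares rest on 641677 to 970648 counts per library, so counting error is small. In bulk RNA, fewer cells of a type, fewer mitochondria per cell and less RNA per mitochondrion cannot be told apart.

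The class that differed most in proportion was the rRNA. RNR1 and RNR2 together gave 0.470% and 0.465% of counts in FBG, 0.465% and 0.461% in FCP, 0.401% and 0.399% in aC, and 0.269% and 0.269% in Mock libraries. The 3 exposed groups were all above Mock, and aC was below FBG and FCP. The mRNAs gave 3.78% and 3.76% in FBG, 3.99% and 3.98% in FCP, 3.74% and 3.72% in aC, and 3.81% and 3.79% in Mock libraries, a far smaller relative spread in which FCP stood highest. The tRNA rows gave 0.0135% and 0.0127% in FBG, 0.0113% and 0.0114% in FCP, 0.0125% and 0.0119% in aC, and 0.0101% and 0.00957% in Mock libraries, again with Mock lowest.

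**Figure D1:**
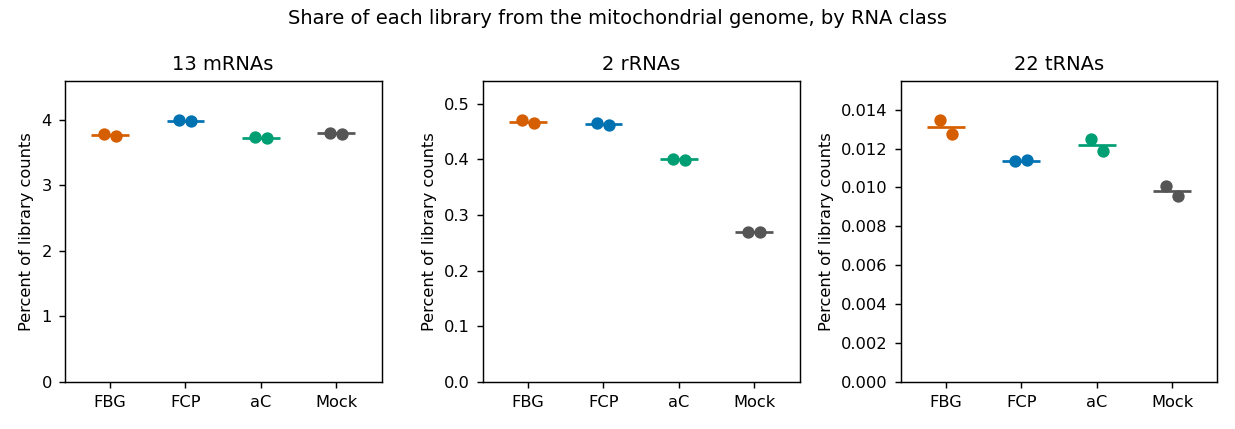
Share of library counts (percent, vertical axes starting at 0) from the 13 mRNAs, 2 rRNAs and 22 tRNAs in each of the 8 libraries, with groups on the horizontal axis. Points are libraries and bars are group means; the rRNA share of Mock libraries, 0.269%, lies below that of every other library, while the mRNA shares lie between 3.72% and 3.99%.

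Class balance was compared across the 4 groups in 6 measures, each with an exact permutation test over all ways to assign 8 libraries to 4 groups of 2. The exact permutation p was 0.00952 for each, the smallest this design allows, and 0.00952 after Benjamini-Hochberg adjustment over the 6. The shares of all mitochondrial genes, of mRNA, of rRNA and of tRNA were 4 of these measures, and the others were the rRNA to mRNA ratio and the ND6 share of mitochondrial mRNA. The test says that some groups differ and not which. When each library total was multiplied by its TMM factor, the mRNA share was highest in Mock and lowest in aC, so the order of the groups in the mRNA share depends on the scaling, whereas the rRNA share stayed highest in FBG and lowest in Mock.

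RNR1 encodes the small and RNR2 the large ribosomal RNA of the mitochondrial ribosome. RNR2 stood at 4302 and 4244 CPM in FBG, 4165 and 4132 in FCP, 3638 and 3618 in aC, and 2388 and 2405 in Mock libraries. RNR1 stood at 400.7 and 403.6 CPM in FBG, 481.6 and 481.7 in FCP, 375 and 371 in aC, and 303 and 289.7 in Mock libraries. Neither gene's exposed libraries overlapped Mock, and the order of the groups differed between the genes, with FBG highest for RNR2 and FCP highest for RNR1. In edgeR fits with TMM scaling, RNR2 rose by a log2 fold change of 0.72 ± 0.02 (SE) in FBG (adjusted p = 6.02e-06), 0.57 ± 0.01 in FCP (adjusted p = 1.58e-06) and 0.37 ± 0.01 in aC (adjusted p = 1.29e-05) against Mock. RNR1 rose by 0.33 ± 0.02 in FBG, 0.48 ± 0.02 in FCP and 0.10 ± 0.02 in aC against Mock, with an adjusted p of 0.000102 in edgeR for the smallest of these. Both kept this direction and their call under every alternative tried, but not their size. RNR1 had 0.41 in FBG, 0.94 in FCP and 0.58 in aC with GC content and length trends removed, so that aC then stood above FBG, and its aC value was 0.36 with scaling by mitochondrial mRNA and 0.06 without Mock replicate 2. RNR2 had 0.65, 0.77 and 0.59 in FBG, FCP and aC with the trends removed.

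Measured against the mitochondrial mRNAs of the same library, which needs no scaling between libraries, the rRNA to mRNA ratio was 0.124 ± 0.000446 in FBG, 0.116 ± 0.000275 in FCP, 0.107 ± 0.000124 in aC and 0.0709 ± 0.000281 in Mock (SD, n = 2 each). The RNR2 to RNR1 count ratio was 10.7 and 10.5 in FBG, 8.65 and 8.58 in FCP, 9.69 and 9.76 in aC, and 7.89 and 8.30 in Mock libraries. The 2 Mock libraries differed more in this ratio than the libraries of any other group, yet no other library reached down to them. Mitochondrial rRNA is captured only in part when mRNA is enriched, and how the mRNA was enriched is not stated in the labels. The 22 nuclear RNAs without long poly(A) tails that were listed for comparison, such as RN7SL1, RN7SK and RMRP, summed to 11.7 and 13.3 CPM in FBG, 38.7 and 35.3 in FCP, 18.2 and 18.8 in aC, and 19.0 and 19.99 in Mock libraries. That sum joins RNAs that moved apart. RN7SK had 19 and 37 counts in aC and 53 and 57 in Mock libraries, whereas H2AC6 had 93 and 112 in aC and 35 and 23 in Mock libraries. The order of the groups in the sum is therefore not a measure of how such RNA was captured. The part of enrichment in the rRNA values was not tested.

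**Figure D2:**
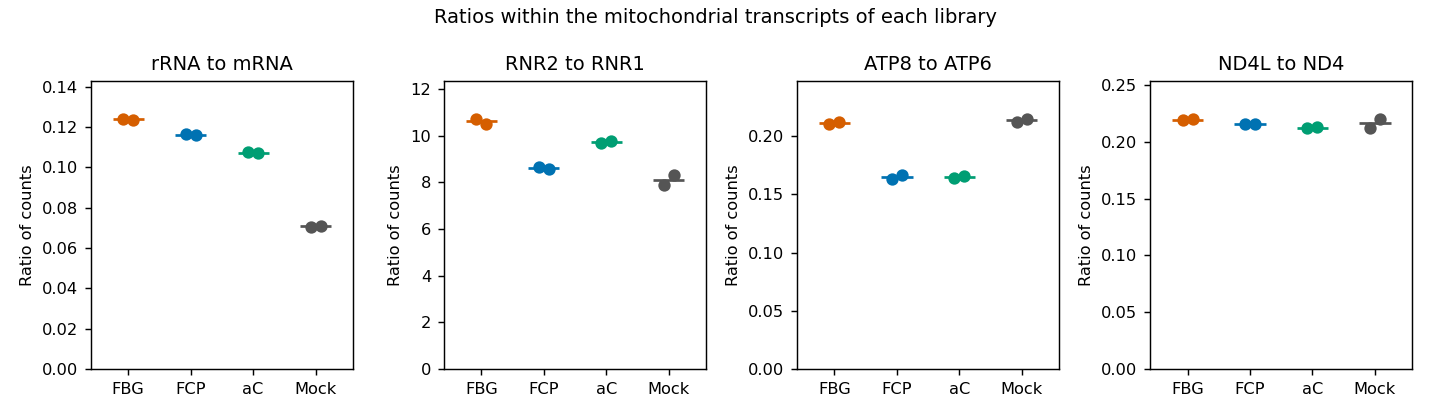
Ratios of counts within each library (vertical axes starting at 0) by group, for rRNA to mRNA, RNR2 to RNR1, ATP8 to ATP6 and ND4L to ND4. Points are libraries and bars are group means; Mock is lowest for both rRNA ratios, FCP and aC are lowest for ATP8 to ATP6 (0.163 to 0.167), and ND4L to ND4 lies between 0.212 and 0.221 in all 8 libraries.

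Among the mRNAs, COX1, the catalytic subunit of cytochrome c oxidase, had the highest level in every group at 6277 ± 22.1 CPM per kb in FBG, 7577 ± 10.1 in FCP, 7077 ± 8.88 in aC and 6888 ± 15.6 in Mock (SD, n = 2 each). It was also the row with the most counts of any gene, nuclear genes included, in all 8 libraries, at 0.966% to 1.17% of counts. ND3, a small membrane subunit of complex I, had the lowest level, at 688 ± 7.79 in FBG, 497 ± 2.82 in FCP, 503 ± 4.11 in aC and 693 ± 2.36 in Mock on the same per-length scale.

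Between these ends, COX2 and COX3, the other 2 mitochondrial subunits of complex IV, took ranks 2 and 3 of 13, with COX2 above COX3 in FBG and Mock and COX3 above COX2 in FCP and aC. ND4L and ND4, which are carried by a shared mRNA, took ranks 4 and 5 and differed in Mock by less than the SD of ND4L, at 4301 ± 96.2 and 4280.0 ± 19.5 CPM per kb. ATP6 was 6th in every group. ATP8, carried on the same mRNA as ATP6, had 2506 ± 14.5 against 3601 ± 1.14 for ATP6 in FBG, 2018 ± 26.3 against 3722 ± 8.65 in FCP, 1854 ± 8.57 against 3420.4 ± 12.96 in aC and 2701 ± 16.8 against 3844 ± 14.7 in Mock. ATP8 thus read lower than ATP6 in all groups. CYTB, the mitochondrial subunit of complex III, was 10th in every group, at 1591 to 1838 CPM per kb. ND2 and ND6 exchanged places around 11 and 12, with ND2 above ND6 in FBG and Mock and ND6 above ND2 in FCP and aC. ND6 is the one mRNA on the minus strand, and with unstranded counts its reads cannot be told apart from plus-strand precursor RNA across the same bases.

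**Figure D3:**
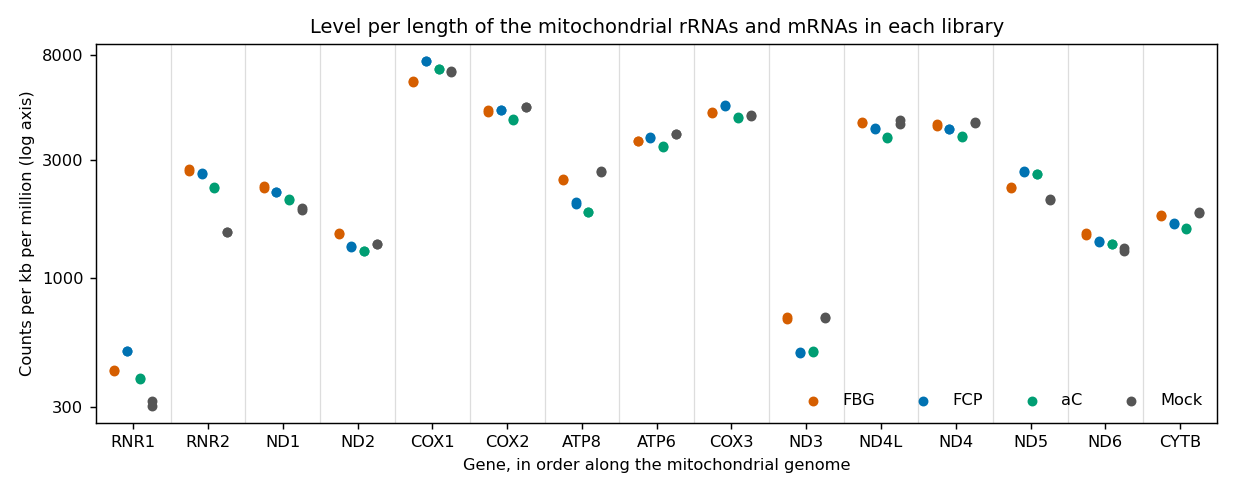
Level per length (CPM per kb, log axis) of the 2 rRNAs and 13 mRNAs, placed on the horizontal axis in their order along the mitochondrial genome. Points are single libraries coloured by group; RNR1, RNR2 and ND5 lie lowest in Mock, while ATP8 and ND3 lie lowest in FCP and aC, at most 2036 and 506.

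The fits asked which members changed in each comparison, with 25 of the 37 genes passing the filter on low counts, namely all 13 mRNAs, both rRNAs and 10 of 22 tRNAs. In FBG against Mock, 12 members rose and 9 fell at an adjusted p under 0.05 in edgeR, where 50.4% of all 16307 genes tested were called (24.2% higher and 26.3% lower). In FCP against Mock, 10 rose and 13 fell, where 73.4% of all genes were called (37.3% higher and 36.1% lower), and in aC against Mock, 11 rose and 14 fell, where 74.7% were called (38% higher and 36.7% lower). Calls were thus frequent throughout the transcriptome, and replicate libraries agreed closely, so that very small differences passed. The largest difference between replicate counts of the 15 mRNAs and rRNAs, after allowing for depth, was 4.49%, in Mock.

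The direction of many mRNAs depended on the scaling. With TMM scaling, 2 mRNAs rose and 9 fell in FBG, 1 rose and 11 fell in FCP, and 1 rose and 12 fell in aC against Mock. The median log2 fold change of the 13 mRNAs was -0.13, -0.26 and -0.39 in these comparisons in that order, beside 0.02, 0.06 and 0.06 over all genes. With library size as the only scaling, which moved the median of all genes to 0.13, 0.28 and 0.29, the mRNA medians were -0.01, -0.04 and -0.16, with 4 higher and 6 lower, 5 higher and 8 lower, and 4 higher and 8 lower. With trends of fold change on GC content and gene length removed over nuclear genes, a setting added after the data were seen, the mRNA medians became -0.05, 0.20 and 0.09, and in FCP against Mock 10 mRNAs were then called higher and 2 lower. Over all 25 members the split became 15 higher and 6 lower in FBG, 15 and 9 in FCP, and 14 with 10 in aC with library size as the only scaling, and 11 higher and 8 lower in FBG, 20 and 4 in FCP, and 17 with 4 in aC with the trends removed. The overall level of the mitochondrial mRNAs relative to nuclear mRNA is therefore not fixed in sign by these counts in FCP and aC. In FCP and aC against Mock, the lower ATP8 and ND3 and the higher ND5, RNR1 and RNR2 held under every alternative, as did the lower ND4 in aC. The trend removal capped gene length near the extremes of the nuclear genes used. For rows as short as ATP8 and ND3 it may therefore not have removed the part of length. In FBG against Mock the lower ATP6, ATP8, COX1, CYTB and ND4 and the higher ND1, ND6, RNR1 and RNR2 held under every alternative.

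**Figure D4:**
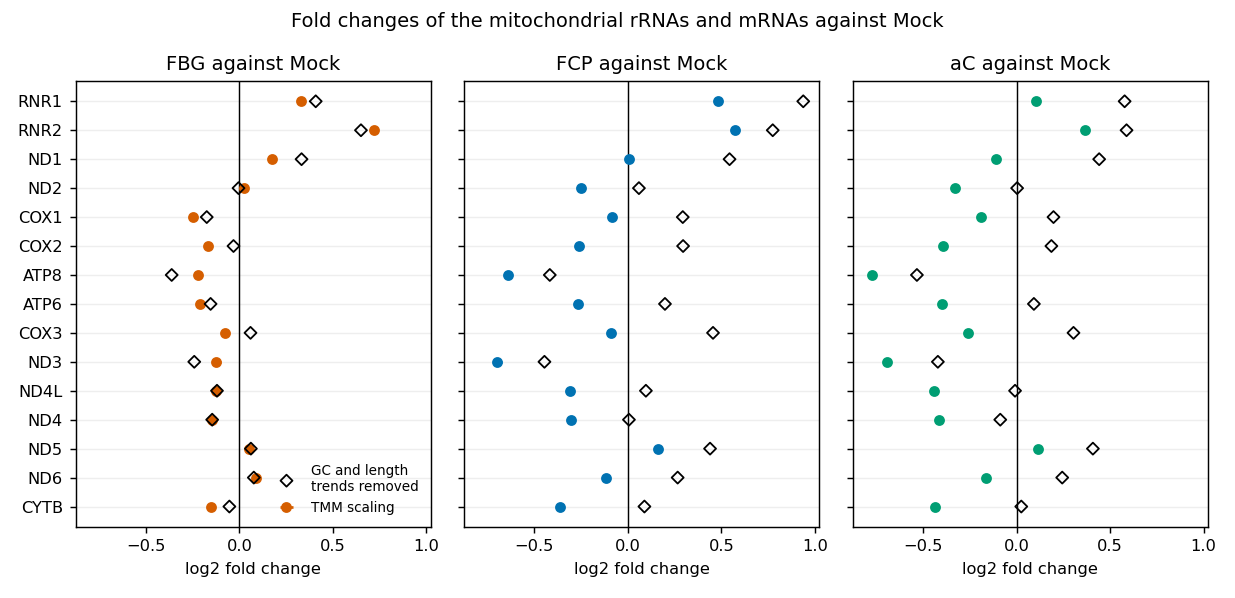
Log2 fold change against Mock (horizontal axes) of the 2 rRNAs and 13 mRNAs, in genome order from the top, for FBG, FCP and aC. Filled circles are edgeR estimates with TMM scaling, with SE bars that mostly fit within the symbol, and open diamonds are estimates after GC content and length trends were removed; RNR1 and RNR2 lie right of 0 and ATP8 and ND3 left of 0 on both scales in all 3 panels, while COX1, COX2, ATP6 and COX3 change side in FCP and aC.

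ATP8 encodes a small membrane subunit of ATP synthase. It stood at 516.6 and 521 CPM in FBG, 414 and 421.5 in FCP, 382.5 and 385 in aC, and 557 and 562 in Mock libraries. No exposed library reached the Mock values, and FCP and aC lay further below them than FBG. With TMM scaling in edgeR, ATP8 fell by a log2 fold change of 0.64 ± 0.02 in FCP (adjusted p = 1.63e-19), 0.77 ± 0.02 in aC (adjusted p = 5.28e-21) and 0.22 ± 0.02 in FBG (adjusted p = 1.94e-10) against Mock. ND3 stood at 239.9 and 236 CPM in FBG, 171 and 173 in FCP, 173 and 175 in aC, and 239 and 240.2 in Mock libraries. ND3 fell by 0.70 ± 0.02 in FCP (edgeR, adjusted p = 8.57e-18) and by 0.69 ± 0.02 in aC (adjusted p = 8.89e-18), and its FBG value of -0.12 became 0.00025 when libraries were scaled by their mitochondrial mRNA. The ND3 standard errors lay just below the counting errors, 0.02267 against 0.02326 in FCP and 0.02259 against 0.02305 in aC. The p-values of ND3 are therefore too small. With GC content and length trends removed, ATP8 had -0.36 in FBG, -0.42 in FCP and -0.53 in aC, and ND3 had -0.24, -0.45 and -0.42, so the gap between FBG and the other groups was smaller. The FBG value of ATP8 was -0.10 with scaling by mitochondrial mRNA.

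The ATP8 to ATP6 count ratio was 0.211 and 0.212 in FBG, 0.163 and 0.167 in FCP, 0.164 and 0.166 in aC, and 0.212 and 0.215 in Mock libraries. FBG and Mock lay together and FCP and aC lay together, without overlap between the pairs of groups. The ND4L to ND4 ratio, across the other overlap, was 0.219 and 0.220 in FBG, 0.216 and 0.216 in FCP, 0.213 and 0.213 in aC, and 0.212 and 0.221 in Mock libraries, and the Mock libraries spanned all the others. ND4L is longer than ATP8 and shorter than ND3 (297, 207 and 346 bases), and its fold change, -0.31 in FCP and -0.44 in aC with TMM scaling, was close to that of ND4, -0.31 and -0.42. ATP8 and ND3 are also the mRNAs lowest in GC content, at 39.6% and 40.2%. The parts of gene length and GC content in their values were not tested. Across 10938 nuclear genes the fold change in FCP against Mock had a Spearman correlation of 0.37 with gene length and -0.349 with GC content. Over the 13 mRNAs the Spearman correlation with length was 0.593 in FCP, 0.588 in aC and 0.099 in FBG against Mock. With GC content it was 0.566, 0.516 and 0.099 in the same order. These points share the same libraries and the mRNAs share precursors, so the correlations are descriptions.

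ND5, the longest mRNA and a proton-pumping subunit of complex I, moved the other way. Its level was 4247 and 4184 CPM in FBG, 4929 and 4886 in FCP, 4781 and 4789.7 in aC, and 3783 and 3746 in Mock libraries. All exposed libraries were above Mock, with FCP and aC above FBG. In edgeR, ND5 rose by a log2 fold change of 0.16 ± 0.01 in FCP (adjusted p = 0.000101) and 0.12 ± 0.01 in aC (adjusted p = 0.00035), whereas its value of 0.05 ± 0.02 in FBG missed the threshold (adjusted p = 0.0595) and passed it with library size as the only scaling and in 8 other settings. Its size depended on the setting, with 0.44 in FCP and 0.41 in aC once GC content and length trends were removed, and 0.31 and 0.37 with scaling by mitochondrial mRNA. The ND5 to ND4 count ratio was 0.733 and 0.731 in FBG, 0.887 and 0.880 in FCP, 0.919 and 0.927 in aC, and 0.639 and 0.637 in Mock libraries. It separated all 4 groups, although both genes lie on the same plus-strand precursor.

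Other members of complex I followed different courses within the mRNA pool. ND1 made up 5.96% and 5.89% of mitochondrial mRNA in FBG, 5.37% and 5.36% in FCP, 5.35% and 5.32% in aC, and 4.84% and 4.78% in Mock libraries. Its share was above Mock in all exposed libraries and highest in FBG, and in edgeR with TMM scaling ND1 rose by 0.18 ± 0.02 in FBG (adjusted p = 0.00115), and by 0.33 with GC content and length trends removed. In FCP ND1 had 0.01 with TMM scaling and was called higher with library size as the only scaling (0.23), with scaling by mitochondrial mRNA (0.16) and with the trends removed (0.54). ND6 made up 2.11% and 2.08% in FBG, 1.86% and 1.85% in FCP, 1.92% and 1.93% in aC, and 1.83% and 1.79% in Mock libraries. ND6 rose by 0.09 ± 0.02 in FBG (edgeR, adjusted p = 0.000106, and by 0.21 with scaling by mitochondrial mRNA), while in FCP and aC its values of -0.12 and -0.17 changed sign with library size as the only scaling. ND2 made up 4.20% and 4.17% in FBG, 3.52% and 3.51% in FCP, 3.59% and 3.59% in aC, and 3.77% and 3.76% in Mock libraries, so its share was above Mock in FBG and below Mock in FCP and aC. Together the 7 complex I mRNAs gave 42.8% and 42.5% of mitochondrial mRNA in FBG, 40.5% and 40.4% in FCP, 41.0% and 41.1% in aC, and 39.9% and 39.8% in Mock libraries.

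The complex IV mRNAs gave 43.9% and 44.2% of mitochondrial mRNA in FBG, 47.4% and 47.4% in FCP, 46.8% and 46.8% in aC, and 46.2% and 46.4% in Mock libraries, so FBG stood lowest. COX1 stood in the same order at its low end, with 25.5% and 25.8% in FBG, 29.3% and 29.3% in FCP, 29.2% and 29.3% in aC, and 27.9% and 28.1% in Mock libraries. In edgeR with TMM scaling COX1 fell by a log2 fold change of 0.25 ± 0.01 in FBG (adjusted p = 4.55e-06), a direction that held under every alternative in that comparison, with -0.12 when libraries were scaled by mitochondrial mRNA, whereas its values of -0.08 in FCP and -0.19 in aC turned to 0.14 and 0.04 with library size as the only scaling. The COX2 to COX1 ratio was 0.340 and 0.334 in FBG, 0.280 and 0.281 in FCP, 0.277 and 0.276 in aC, and 0.320 and 0.317 in Mock libraries. COX2 and COX1 lie on the same strand, with the tRNA genes TRNS1 (minus strand) and TRND (plus strand) between them. The COX2 to COX1 ratio again placed FCP and aC together.

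The ATP synthase mRNAs and CYTB lost share in every exposed group. ATP8 and ATP6 together gave 7.85% and 7.91% of mitochondrial mRNA in FBG, 7.39% and 7.42% in FCP, 7.28% and 7.28% in aC, and 8.36% and 8.37% in Mock libraries. CYTB gave 5.42% and 5.43% in FBG, 4.78% and 4.77% in FCP, 4.89% and 4.86% in aC, and 5.54% and 5.50% in Mock libraries. With libraries scaled by their mitochondrial mRNA, edgeR gave log2 fold changes for ATP6 of -0.08 in FBG, -0.12 in FCP and -0.14 in aC against Mock. Their standard errors there were 0.0021, 0.0015 and 0.0016, below the counting errors of 0.0072, 0.0066 and 0.0066. The p-values are therefore too small and are not given. On that scale the 13 mRNAs are compared with their own sum, so a rise of some requires a fall of others.

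The tRNA rows hold reads of fragments long enough to enter an mRNA library and are not a measure of mature tRNA. They summed to 135 and 127 CPM in FBG, 113 and 114 in FCP, 125 and 119 in aC, and 101 and 95.7 in Mock libraries, and 12 of the 22 had fewer than 100 counts over all libraries, TRNW none. With 3 counts as the lowest detectable, the floor was 0.135 to 0.198 CPM per library. TRNC, TRNN and TRNP on the minus strand supplied 78.1% to 92.1% of tRNA counts. Because the counting used no strand, their counts may come from either strand, and which strand was not tested.

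The 14 plus-strand tRNA rows, which stand between the plus-strand genes, differed far more in proportion between groups, as a sum, than the minus-strand rows. Their summed level was 18.2 and 15.8 CPM in FBG, 21.9 and 20.2 in FCP, 23.5 and 22.5 in aC, and 6.40 and 6.94 in Mock libraries. The minus-strand rows summed to 116.4 and 111.6 CPM in FBG, 91.5 and 93.9 in FCP, 102 and 96.5 in aC, and 94.2 and 88.8 in Mock libraries. The first sums left every exposed library above Mock, while in the second FCP and Mock overlapped. That difference between the strands was not tested as such, and the plus-strand sums rest on 106 to 523 counts per library. With no strand in the counts, the sums group rows by the annotated strand of the gene. TRNC, TRNN and TRNP, which supplied most minus-strand counts, each border bases outside any gene listed. TRNG, TRNR, TRNS2 and TRNL2 directly adjoin genes on both sides. What this did to the pairs kept was not tested. TRNY, a minus-strand row, also rose in FCP and aC.

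TRNG, for glycine, had 31 and 26 counts in FBG, 69 and 72 in FCP, 102 and 93 in aC, and 10 and 8 in Mock libraries. TRNR, for arginine, had 27 and 22 counts in FBG, 68 and 72 in FCP, 82 and 91 in aC, and 9 and 8 in Mock libraries. These are the tRNAs on either side of ND3, and in FCP and aC they read higher where ND3 read lower. In FBG they also read higher, where ND3 had -0.12 with TMM scaling and 0.00025 with scaling by mitochondrial mRNA. TRNS2 and TRNL2, which do not adjoin ND3, rose as well, and a link with ND3 was not tested. In edgeR with TMM scaling TRNG rose by a log2 fold change of 1.67 ± 0.28 in FBG (adjusted p = 3.26e-05), 2.35 ± 0.27 in FCP (adjusted p = 6.21e-08) and 2.77 ± 0.27 in aC (adjusted p = 3.51e-09) against Mock. TRNR rose by 1.53 ± 0.30 in FBG, 2.42 ± 0.28 in FCP and 2.68 ± 0.28 in aC (edgeR, adjusted p = 1.02e-08 in aC). The counting errors in FBG, FCP and aC were 0.39, 0.36 and 0.36 for TRNG and 0.41, 0.37 and 0.37 for TRNR. The standard errors lay below them, so they and the p-values are too small. Both genes kept direction and call under every alternative.

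TRNL2 and TRNS2, the leucine and serine tRNAs between ND4 and ND5, also rose, TRNL2 from the fewest counts of any row tested. TRNL2 had 17 and 13 counts in FBG, 24 and 27 in FCP, 25 and 32 in aC, and 4 and 1 in Mock libraries, with log2 fold changes of 2.55 ± 0.54, 2.69 ± 0.51 and 2.81 ± 0.50 in FBG, FCP and aC against Mock in edgeR. TRNS2 rose by 1.38 ± 0.34 in FBG (edgeR, adjusted p = 0.00219, and 0.0572 in DESeq2), 2.07 ± 0.32 in FCP and 2.04 ± 0.32 in aC. The standard errors of TRNL2 and TRNS2 lay below the counting errors, which in FBG were 0.70 and 0.44. They and the edgeR p-values are thus too small. TRNH, for histidine, which adjoins TRNS2, rose by 1.24 ± 0.26 in FBG, 0.88 ± 0.26 in FCP and 1.44 ± 0.26 in aC, and its FCP call was lost without FCP replicate 1 (0.68, edgeR, adjusted p = 0.0694) and in DESeq2 (adjusted p = 0.0783). TRNL1, the leucine tRNA beside RNR2, rose by 0.92 ± 0.17 in FBG, 0.82 ± 0.16 in FCP and 0.52 ± 0.16 in aC, and its aC call was lost without Mock replicate 1 (0.39, edgeR, adjusted p = 0.0847) and in DESeq2 (adjusted p = 0.103).

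On the minus strand, TRNN, for asparagine, had 34.3 and 33.7 CPM in FBG, 19.2 and 22.7 in FCP, 19.8 and 23.6 in aC, and 26.2 and 26.2 in Mock libraries. FBG lay above Mock and FCP and aC below it, with TMM-scaled log2 fold changes of 0.26 ± 0.09, -0.54 ± 0.09 and -0.50 ± 0.09 against Mock. The FBG call was lost without any 1 of the FBG or Mock libraries, with the adjusted p in edgeR between 0.0765 and 0.101, and also in DESeq2 and with GC content and length trends removed. That last setting also ended the aC call (-0.18, edgeR, adjusted p = 0.0522) and left TRNN at -0.24 in FCP. TRNP, for proline, fell by 0.39 ± 0.08 in FCP (edgeR, adjusted p = 0.000131, and 0.0557 with library size as the only scaling) and by 0.52 ± 0.08 in aC, and had 0.08 ± 0.08 in FBG. TRNC, for cysteine, rose by 0.23 ± 0.06 in FBG (edgeR, adjusted p = 0.00219, and 0.0514 without FBG replicate 1) and by 0.24 ± 0.06 in aC, and had 0.05 ± 0.06 in FCP. In FCP TRNC was called higher with library size as the only scaling (0.27, edgeR, adjusted p = 0.000262), with scaling by mitochondrial mRNA (0.20, adjusted p = 0.00336) and with GC content and length trends removed (0.58, adjusted p = 1.56e-11), and its aC value was then 0.47, 0.50 and 0.79. TRNY, for tyrosine, rose by 1.07 ± 0.30 in FCP and 1.26 ± 0.30 in aC, on 13 to 62 counts per library, and its FCP call was lost without FCP replicate 2 (0.85, edgeR, adjusted p = 0.0525) and in DESeq2 (adjusted p = 0.0643).

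**Figure D5:**
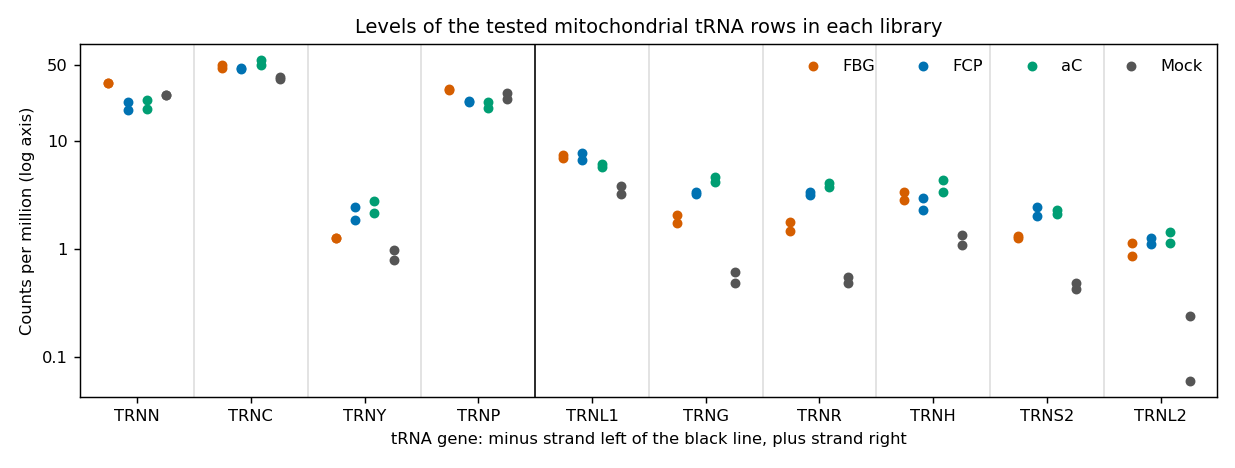
Level (CPM, log axis) of the 10 tRNA rows that passed the filter on low counts, with minus-strand genes left of the black line and plus-strand genes right of it. Points are single libraries coloured by group; the Mock points lie lowest for all 6 plus-strand rows and for TRNY and TRNC, and above FCP and aC for TRNP.

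The aC and FCP groups were close to each other across the transcriptome, with 9.01% of genes called in aC against FCP (4.57% higher and 4.45% lower). In that comparison 1 member rose and 13 fell, 11 of them mRNAs, with a median mRNA log2 fold change of -0.11 beside 0.0017 over all genes. The mRNA falls lay between 0.05 and 0.17, and with libraries scaled by mitochondrial mRNA 4 mRNAs were called higher and 3 lower, among 6 members higher and 5 lower in all. RNR1 fell in aC against FCP by a log2 fold change of 0.38 ± 0.02 (edgeR, adjusted p = 2.2e-12) and RNR2 by 0.20 ± 0.01 (adjusted p = 0.000396). COX3 fell by 0.17 ± 0.01 (edgeR, adjusted p = 0.00252). These 3 were the only falls of this comparison followed gene by gene through every alternative, and they held in each. With scaling by mitochondrial mRNA RNR1 had -0.27, RNR2 -0.10 and COX3 -0.06. The 1 rise was TRNC at 0.19 ± 0.06 (edgeR, adjusted p = 0.0414), which was lost without any 1 of the FCP libraries, without aC replicate 1, without FBG replicate 1 or in DESeq2.

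Against fibrinogen itself, FCP had 7 members higher and 14 lower, where 66.8% of all genes were called (32.6% higher and 34.2% lower), and aC had 6 higher and 16 lower, where 68.3% were called (33.8% higher and 34.5% lower). ATP8 fell by 0.42 in FCP and by 0.55 in aC against FBG, and ND3 by 0.57 in both, on the TMM scale. With GC content and length trends removed the split turned to 18 higher and 3 lower in FCP and 17 higher and 5 lower in aC, so most directions against FBG depend on that choice. Of the rRNAs, RNR1 rose by 0.15 in FCP and fell by 0.23 in aC, while RNR2 fell by 0.15 in FCP and by 0.35 in aC. With the trends removed, RNR1 had 0.53 in FCP and 0.17 in aC against FBG, and RNR2 had 0.12 and -0.06, so the signs of RNR2 in FCP and of RNR1 in aC turned. ATP8 and ND3 stayed below FBG in that setting, ATP8 at -0.06 in FCP and -0.17 in aC and ND3 at -0.21 and -0.18. All 6 comparisons draw on the same 4 groups, so those that share a group are not independent.

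Nuclear genes that serve the mitochondrial genome were read beside its transcripts, with lists drawn up by role. Of 78 tested genes for mitochondrial ribosomal proteins, 6 rose and 54 fell in FBG, 2 rose and 69 fell in FCP, and 2 rose and 71 fell in aC against Mock, where 26.3%, 36.1% and 36.7% of all genes were called lower. Their median log2 fold changes were -0.26, -0.66 and -0.65 in these comparisons, and they remained below 0 with library size as the only scaling (-0.14, -0.44 and -0.42) and with GC content and length trends removed (-0.16, -0.36 and -0.40). Most mRNAs for proteins of the mitochondrial ribosome and its 2 rRNAs thus read in opposite directions against Mock. MRPS6, a small-subunit protein, fell with log2 fold changes of -0.70 in FBG, -1.51 in FCP and -1.77 in aC on the TMM scale. MRPL50, of the large subunit, rose by 0.90 in FCP and by 0.87 in aC, or by 0.50 and 0.46 with those trends removed.

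Many nuclear subunits of the respiratory complexes fell too, where 26.3%, 36.1% and 36.7% of all genes were called lower in FBG, FCP and aC against Mock. Of 32 tested complex I subunits, 20 fell in FBG, 25 in FCP and 25 in aC, and of 17 ATP synthase subunits 14, 16 and 16 fell in the same comparisons. In FBG those counts were 13 and 9 with library size as the only scaling, and 9 of 32 and 10 of 15 with GC content and length trends removed. All 11 tested complex IV subunits fell in FCP and in aC, and 10 fell in FBG. The 3 tested complex II subunits, a complex with no mitochondrially encoded member, fell in all 3 comparisons, with SDHA at 385 and 386 CPM in FBG, 479 and 466 in FCP, 458 and 464 in aC, and 524.5 and 541 in Mock libraries. Of 9 complex III subunits, 7 fell in FBG, 8 in FCP and 8 in aC. The medians of the complex I, IV and ATP synthase lists in FCP against Mock were -0.62, -0.70 and -0.71, beside -0.26 for the 13 mitochondrial mRNAs. They were -0.40, -0.48 and -0.49, beside -0.04, with library size as the only scaling, and -0.32, -0.45 and -0.28, beside 0.20, with the trends removed. Single examples in FCP were ATP5MC1, a ring subunit of ATP synthase, at -1.24, COX8A of complex IV at -1.08, NDUFB2 of complex I at -1.32 and UQCR10 of complex III at -1.03 with TMM scaling. With the trends removed these were -0.63, -0.45, -0.82 and -0.51.

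The transcription machinery of mitochondrial DNA gave mixed directions, with 16 tested. In FBG against Mock 4 rose and 4 fell, in FCP 6 rose and 7 fell, and in aC 6 rose and 8 fell, where of all genes 24.2%, 37.3% and 38% were called higher and 26.3%, 36.1% and 36.7% lower. The split was 6 and 3, 9 and 4, and 8 and 4 with library size as the only scaling, and 3 and 6, 6 and 9, and 6 and 9 with GC content and length trends removed, so its direction depends on the setting. POLRMT, the RNA polymerase, had 71.1 and 67.4 CPM in FBG, 66.6 and 69.1 in FCP, 66.9 and 72.1 in aC, and 97.3 and 100.2 in Mock libraries, and fell by 0.63, by 0.76 and by 0.74 in these comparisons (edgeR, adjusted p of 3.35e-11 or less), and in FBG had -0.34 with the trends removed. TFAM, which packages mitochondrial DNA and activates its promoters, had 113 and 105 CPM in FBG, 105 and 107 in FCP, 107 and 97.4 in aC, and 80.04 and 79.9 in Mock libraries. TFAM rose by 0.33 in FBG, 0.18 in FCP and 0.12 in aC, but its sign turned in FCP and aC when GC content and length trends were removed (-0.21 and -0.26), its FBG call was lost there (0.02), and its aC call was lost without either Mock library, without aC replicate 1 and in DESeq2. TFB2M, the other initiation factor, had values between 0.02 and 0.15 that passed the threshold in none of the 3 comparisons with TMM scaling, and was called higher in FCP and aC with library size as the only scaling (0.28 and 0.38) and with the trends removed (0.19 and 0.29). The elongation factor TEFM rose by 0.36 in FCP and 0.38 in aC, calls that were lost in DESeq2, without Mock replicate 2 (0.18 and 0.20), and without FCP replicate 2 or aC replicate 2.

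Genes for the handling of mitochondrial RNA fell more often than they rose with TMM scaling, with 43 tested. In FBG against Mock 7 rose and 18 fell, in FCP 8 rose and 22 fell, and in aC 8 rose and 20 fell. Of all genes, 24.2%, 37.3% and 38% were called higher and 26.3%, 36.1% and 36.7% lower in these comparisons. With library size as the only scaling the split was 13 and 12, 22 and 12, and 20 and 12, so its direction depends on the scaling. LRPPRC and SLIRP form a complex that stabilises mitochondrial mRNAs, and they parted in FCP and aC. LRPPRC had 219 and 224 CPM in FBG, 324 and 329 in FCP, 328 and 337 in aC, and 186 and 191 in Mock libraries, and rose by 0.57 in FCP and 0.59 in aC (edgeR, adjusted p = 4.3e-16 and 2.32e-16), or by 0.24 and 0.28 with GC content and length trends removed. SLIRP had 50.5 and 44.5 CPM in FBG, 28.1 and 31.4 in FCP, 29.7 and 31.2 in aC, and 45.2 and 43.0 in Mock libraries, and fell by 0.79 in FCP and by 0.76 in aC. Of the mitochondrial RNA degradosome, the helicase SUPV3L1 fell by 0.25 in FBG, by 0.29 in FCP and by 0.26 in aC with TMM scaling, calls that were all lost with library size as the only scaling (-0.14, -0.07 and -0.04), while the nuclease PNPT1 rose by 0.18 in FBG and 0.13 in FCP with TMM scaling and read below 0 in both, and in aC, once GC content and length trends were removed.

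REXO2, an oligoribonuclease that clears short RNA in mitochondria, fell by 0.69 in FBG, by 0.81 in FCP and by 0.87 in aC, and had -0.31 in FCP and -0.36 in aC with GC content and length trends removed. MRM3, a methyltransferase of the large mitochondrial rRNA, fell by 1.23 in FCP and by 1.33 in aC. TRNT1, which adds the CCA end to tRNAs, had 17.2 and 15.8 CPM in FBG, 31.5 and 35.1 in FCP, 36.0 and 36.1 in aC, and 14.3 and 13.7 in Mock libraries, and rose by 1.03 in FCP and 1.13 in aC, or by 0.44 and 0.54 with GC content and length trends removed. GRSF1, an RNA-binding protein of mitochondrial RNA granules, fell by 0.10 in FBG, by 0.15 in FCP and by 0.17 in aC with TMM scaling, a direction that turned with library size as the only scaling.

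Among regulators of mitochondrial content, 1 of 8 tested rose and 4 fell in FBG, 2 rose and 4 fell in FCP, and 3 rose and 2 fell in aC against Mock, beside the shares of all genes given above. With library size as the only scaling 4 rose and 1 fell in FCP and 6 rose and 1 fell in aC, and with GC content and length trends removed none rose and 6 fell in FBG, so the direction depends on the setting. PPARGC1B, a coactivator of respiratory genes, had 28.4 and 29.5 CPM in FCP, 28.4 and 26.5 in aC, and 6.65 and 5.86 in Mock libraries, and rose by 1.99 in FCP and 1.904 in aC, while PPARGC1A had at most 10 counts in any library and was not tested. PPRC1, a related coactivator, fell by 0.44 in FBG, and NRF1, a transcription factor for respiratory genes, fell by 0.38 in FCP and by 0.47 in aC. MYC, which also regulates mitochondrial gene expression, fell by 1.34 in FBG. Of 18 genes used as markers of mitochondrial mass, 3 rose and 14 fell in FBG, 2 rose and 15 fell in FCP, and 2 rose and 15 fell in aC, where 26.3%, 36.1% and 36.7% of all genes were called lower. CLPP, a matrix protease, fell by 1.17 in FCP and by 1.06 in aC, and OPA1, the inner-membrane fusion GTPase, rose by 0.53 in FBG, 1.05 in FCP and 1.02 in aC, or by 0.16, 0.53 and 0.50 with the trends removed. The lists for nuclear genes and the mitochondrial transcripts come from the same libraries, and none of these values is a test of a link between them.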

How the data were processed

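Whole-number counts per gene for 8 libraries were deposited by the authors. They come from featureCounts run on read pairs without strand, multi-mapping or overlap options, per the file headers, which name version 1.6.0. Version 1.6.2 stands in the submitters' processing notes, with Trimmomatic 0.39, HISAT2 2.2.1, SAMtools 1.9 and GRCh38.p14. Each library was a replicate as labelled, and whether replicates came from separate cultures is given only as biological replicate numbers, so p-values measure the spread between these samples. Between replicates, the mean chi-square over the 15 mRNAs and rRNAs was 2.64 in FBG, 1.2 in FCP, 1.43 in aC and 2.64 in Mock. Those of FCP and aC are close to the value for counting error alone. The p-values may therefore not cover variation between cultures, which was not tested. Depth was 15137196 to 22258791 counts.

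From the counts, shares of the library total, CPM (counts scaled to 1000000 per library) and CPM per kb were computed in Python 3.11.15. Genes were tested with edgeR 4.0.16 in R 4.3.3 (quasi-likelihood, robust, TMM, filterByExpr by group, all 8 libraries, 4 residual degrees of freedom), with Benjamini-Hochberg adjustment over 16307 genes and a threshold of 0.05. Standard errors are the absolute log2 fold change over the square root of F. With TMM scaling they lay below the counting error for 2 or 3 of the 13 mRNAs and for 5 or 6 of 10 tRNAs against Mock. These were ATP6, ND3, TRNG, TRNL2, TRNR, TRNS2 and TRNY in all comparisons with Mock, ND2 in FCP and aC, and TRNH in FBG and FCP. There the standard errors and their p-values are too small. The same held for ATP6 with scaling by mitochondrial mRNA. The steps were tested on simulated counts. Alternatives were other scalings, no filter, DESeq2 1.42.0, a replicate block, removal of genes with an annotated copy, leaving out each library, and, chosen after seeing the data, a correction for GC content and length, fitted on nuclear genes, and a fit of only the 4 libraries compared. That correction capped GC content and length near the extremes of those nuclear genes, so the shortest rows, tRNAs included, may have received the value at the cap. The replicate numbers do not pair the libraries. An annotated copy means a further row with the same symbol and a number added, and no mitochondrial gene has one. That check does not look for nuclear sequences that resemble mitochondrial genes. None of the 27 nuclear copies listed was found in the table by symbol, so they were not analysed. All 15 mRNAs and rRNAs and the tRNAs passing the filter were named. For nuclear genes the rule named 12 factors and, per list and comparison, up to 3 called genes with the largest change in each direction, of which a selection made after their values were seen is printed. The detection floor of 3 counts covers counting error alone. The members and lists were chosen with earlier results of these data known.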

Additional observations from a re-analysis of the deposited data

How the results depend on the processing

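The number of mitochondrial genes called stayed within 1.5 times of the reported count in all 6 comparisons under every alternative, and no permutation test lost its call. Over the leave-one-out fits the counts were 18 to 22 in FBG against Mock, 22 to 23 in FCP against Mock, 25 to 26 in aC against Mock, 17 to 21 in FCP against FBG, 19 to 22 in aC against FBG and 12 to 15 in aC against FCP. With 7 libraries the permutation p ranged from 0.00952 to 0.0381 over the 6 measures. The replicate numbers did not pair the libraries, since correlations of replicate differences between groups ran from -0.091 to 0.067 over 11277 genes. A replicate block gave 22, 23, 25, 21, 21 and 14 calls in the 6 comparisons in the order above. The split of calls moved more than the count: library size as the only scaling gave 15 higher and 6 lower, 15 and 9, and 14 and 10 for FBG, FCP and aC against Mock, and removal of GC content and length trends gave 11 and 8, 20 and 4, and 17 and 4. Of 79 fold changes of mitochondrial genes followed, 22 changed sign in at least 1 setting, as did 16 of 68 nuclear ones, and the cause was not tested. With DESeq2 size factors in the edgeR fit, the opposite sign was obtained in FBG against Mock ND2 -0.0017 and TFB2M -0.0090 and in FCP against Mock ND1 -0.0019. With GC content and length trends removed, the opposite sign was obtained in FBG against Mock ND2 -0.0044, COX3 0.060, TRNP -0.25, TFB2M -0.095, TEFM -0.029, LRPPRC -0.085, PNPT1 -0.025 and NRF1 0.060, in FCP against Mock ND2 0.059, COX1 0.29, COX2 0.29, ATP6 0.20, COX3 0.46, ND4L 0.096, ND4 0.0054, ND6 0.27, CYTB 0.088, TFAM -0.21 and PNPT1 -0.11 and in aC against Mock ND1 0.44, ND2 0.0032, COX1 0.20, COX2 0.19, ATP6 0.093, COX3 0.30, ND6 0.24, CYTB 0.025, TFAM -0.26, PNPT1 -0.15 and PPRC1 -0.060. In the DESeq2 Wald test, the opposite sign was obtained in FBG against Mock ND2 -0.0017 and TFB2M -0.0089 and in FCP against Mock ND1 -0.0019. With library size as the only scaling, the opposite sign was obtained in FBG against Mock COX3 0.037, SLIRP 0.11, GRSF1 0.011 and NRF1 0.066, in FCP against Mock COX1 0.14, COX3 0.13, ND6 0.10, GRSF1 0.071 and PPRC1 0.12 and in aC against Mock ND1 0.12, COX1 0.039, ND6 0.064 and GRSF1 0.055. With scaling by the summed mitochondrial mRNA, the opposite sign was obtained in FBG against Mock COX3 0.047, ND3 0.00025, SLIRP 0.12, GRSF1 0.021 and NRF1 0.076, in FCP against Mock COX1 0.068, COX3 0.061, ND6 0.034, GRSF1 0.0014 and PPRC1 0.052 and in aC against Mock ND1 0.15, COX1 0.067, ND6 0.092 and GRSF1 0.083. In the fit of the 4 libraries compared, the opposite sign was obtained in FBG against Mock SLIRP 0.013. With 1 library left out, the log2 fold change lay for TRNP in FBG against Mock between -0.018 and 0.18 (sign turned without Mock replicate 2), TFB2M in FBG against Mock between -0.092 and 0.12 (sign turned without Mock replicate 2 and without FBG replicate 2), SLIRP in FBG against Mock between -0.099 and 0.080 (sign turned without Mock replicate 1 and without FBG replicate 2), ND1 in FCP against Mock between -0.017 and 0.015 (sign turned without Mock replicate 2 and without FBG replicate 2) and TFB2M in FCP against Mock between -0.026 and 0.14 (sign turned without Mock replicate 2). Depth limits the tRNA rows, where TRNL2 rests on 1 to 4 counts per Mock library. The fit of the 4 libraries compared gave 23, 24, 25, 21, 22 and 14 calls.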
